A study of Mus musculus with 2 samples.

Results

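The MHC class II presentation genes described here are 10 genes, H2-Aa, H2-Ab1, H2-Eb1, Cd74, H2-DMa, H2-DMb1, H2-DMb2, H2-Oa, Ciita and Ctss, of the 31053 genes in the count matrices, and all 10 were measured in both libraries. They were chosen by name and not by a rule on their values, although earlier results of these data were known. The data are 1 droplet single-cell RNA-seq library of CD45.2+ DAPI- tumor-infiltrating immune cells (TIIs) from mice given PBS, called the control library, and 1 from mice given 10.5 mg of creatine per day by intraperitoneal injection, called the creatine library. All mice were adult C57BL/6J males bearing B16-OVA, a melanoma line that expresses ovalbumin. Tumors were taken on day 14 and 4 were combined for each group before sorting, so that no value can be assigned to 1 mouse. The methods also give day 10 for TII isolation, a legend gives another number of mice, and the protocol entry of the control library describes creatine although its treatment entry is PBS. Its title and treatment entry were followed here, so that all ratios depend on them.

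After cells with over 25% mitochondrial UMIs were left out, 7241 of 7649 control and 6229 of 6503 creatine cells remained, with a median of 7688 and 8475 UMIs, each UMI standing for 1 captured mRNA molecule. A cell entered a gate when it held UMIs of at least 3 of the 7 markers of a cell type and of more markers of that type than of any other, and no class II gene was a marker. The gates held 62 control and 32 creatine cDC1, 107 and 47 cDC2, 38 and 12 Ccr7+ DCs, 38 and 21 plasmacytoid cells (pDCs), 32 and 45 B cells, 927 and 291 macrophages, 343 and 615 classical monocytes, and 93 and 183 nonclassical monocytes. T cells (3854 and 3143) and NK cells (741 and 1206) gave the background of free RNA and mixed droplets. Each gate was led by its own marker list, which the gating rule favors. Of the classical monocyte list, pDCs also held 2004 and 2343 CPM and nonclassical monocytes 1618 and 1584 CPM. B cells held 807 CPM of it in the creatine library, against 60.8 in the control library. Of the cDC2 list pDCs held 927 and 1094 CPM, and of the macrophage list classical monocytes held 1015 and 514 CPM. The sort kept 29 and 14 cells with melanoma markers. The libraries shared 30 barcodes, of which 11 control and 12 creatine cells lay in antigen-presenting gates, and no ratio of the summed message below moved beyond its interval without them.

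MHC class II molecules are pairs of an alpha and a beta chain that carry peptides from the endosome to the cell surface, where CD4 T cells read them. In C57BL/6 mice the surface molecule is I-A, made of the H2-Aa and H2-Ab1 chains. H2-Eb1 encodes the beta chain of I-E, whose alpha chain this strain does not make. The invariant chain, encoded by Cd74, plugs the groove of new class II dimers, and cathepsin S (Ctss) trims it in the endosome. H2-DM, a dimer of H2-DMa with H2-DMb1 or H2-DMb2, then exchanges the last invariant chain peptide for others, and H2-DO, made of H2-Oa and H2-Ob, holds H2-DM back. CIITA (Ciita) is the transactivator of these genes and has no DNA-binding domain of its own. It sits on RFX, CREB and NF-Y, which bind the X and Y boxes of the promoters, and its own gene is induced by interferon gamma, with IRF1 taking part.

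In GENCODE M21 (GRCm38, the mm10 build named for the files), 7 of the 10 genes, with H2-Ob and H2-Eb2, lie in 249 kb of chromosome 17, from 34092340 to 34341412. In that stretch the annotation places H2-Oa at 34092340 to 34095234, H2-DMa at 34119541 to 34139101, H2-DMb2 at 34143307 to 34151555, H2-DMb1 at 34153072 to 34160230, H2-Ab1 at 34257689 to 34269419, H2-Aa at 34282744 to 34287823 and H2-Eb1 at 34305867 to 34316674. Ciita lies on chromosome 16 (10480059 to 10528418) and Ctss on chromosome 3 (95526786 to 95556403). Promoter stretches are shown because CIITA is known to act through the spacing of these boxes. They come from RefSeq (GRCm38.p6), which held windows for 9 of 12 genes looked up, all but H2-Ab1, Cd74 and Ciita. Each runs 5′ to 3′ in the direction of transcription, from 45 bases before the Y box to 10 after it. The windows follow RefSeq gene starts, which can differ from the GENCODE starts given above. The stretches of H2-DMb2 and H2-DMb1 thus lie inside the GENCODE genes, and that of H2-Oa spans its GENCODE start. Capitals mark the Y box letters TGATTGG and, where found 15 to 40 bases before it on the same strand, the X box core GNAAC.
H2-Aa (chr17:34287857-34287918, minus strand): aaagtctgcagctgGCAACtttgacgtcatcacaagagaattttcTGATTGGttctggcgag
H2-Eb1 (chr17:34305761-34305822, plus strand): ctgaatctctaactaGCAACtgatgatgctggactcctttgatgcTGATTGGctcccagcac
H2-Eb2 (chr17:34325528-34325589, plus strand): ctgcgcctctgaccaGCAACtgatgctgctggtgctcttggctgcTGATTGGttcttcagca
H2-DMb1 (chr17:34153083-34153144, plus strand): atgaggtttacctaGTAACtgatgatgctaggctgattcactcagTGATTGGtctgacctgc
H2-DMb2 (chr17:34145112-34145173, plus strand): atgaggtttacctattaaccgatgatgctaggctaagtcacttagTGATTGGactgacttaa
H2-Oa (chr17:34092289-34092350, plus strand): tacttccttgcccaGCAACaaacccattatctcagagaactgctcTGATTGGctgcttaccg
H2-Ob (chr17:34238801-34238862, plus strand): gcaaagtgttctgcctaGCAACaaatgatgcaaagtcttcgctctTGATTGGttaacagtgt

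The letters TGATTGG occurred on either strand in 7.82% of all 32851 promoter windows of 300 bases, and the pair in 0.682%. The pair was present in 6 of the 9 genes with a window, H2-Aa, H2-Eb1, H2-Eb2, H2-DMb1, H2-Oa and H2-Ob, and the starts of the boxes lay 28 to 31 bases apart. H2-DMb2 held TGATTGG without an exact GNAAC before it, and neither H2-DMa (2 windows) nor Ctss held TGATTGG. Only exact letters were searched, so a box written with other letters would be missed. The letters searched were chosen after the windows had been read, and a match is a description of the sequence and not of binding.

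Class II message was first compared between cell types. The summed level of H2-Aa, H2-Ab1, H2-Eb1 and Cd74 was taken as counts per 1000000 UMIs of a gate (CPM), with exact 95% Poisson intervals. These intervals cover counting error only, and with 1 library per group no test was possible. cDC1 held 37761 CPM in the control and 37347 CPM in the creatine library, and cDC2 held 42907 and 32374 CPM, so that these 4 genes made up about 3% to 4% of all mRNA molecules counted in conventional DCs. Ccr7+ DCs, the migratory mature state, followed with 25843 and 22616 CPM. B cells held 19504 and 18873 CPM and macrophages 16806 and 16127 CPM. Classical monocytes held 16412 CPM in the control but 7236 CPM in the creatine library, and nonclassical monocytes 10012 and 9782 CPM. pDCs were lowest among the antigen-presenting gates, with 4444 and 3172 CPM. For these sums, no interval overlapped that of the next gate within a library. Both libraries gave the same order except in the first pair of gates, where cDC2 led in the control and cDC1 in the creatine library, and in the monocytes, where classical monocytes were below nonclassical monocytes only in the creatine library.

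**Figure D1:**
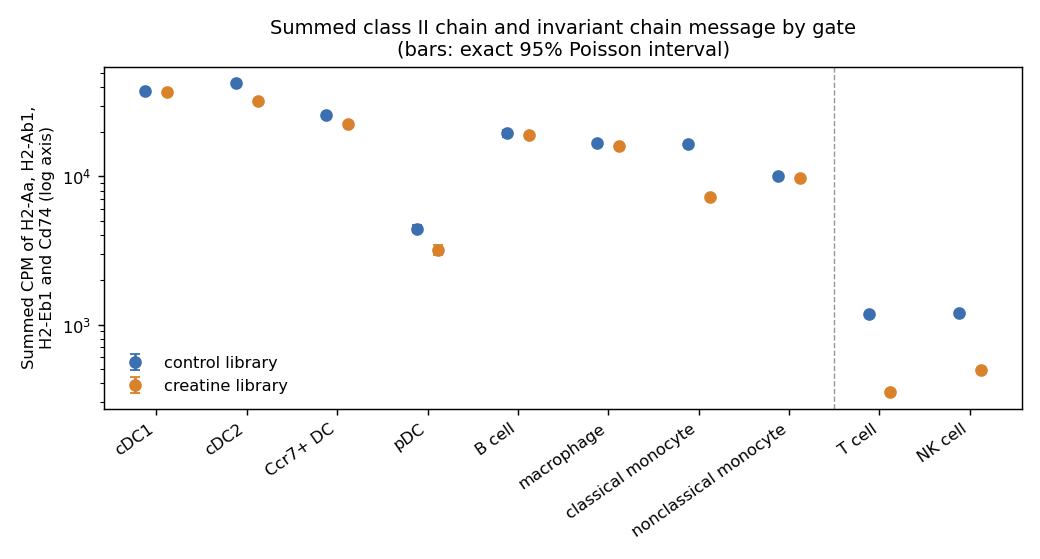
Summed CPM of H2-Aa, H2-Ab1, H2-Eb1 and Cd74 (log axis) in each gate of the control (blue) and creatine (orange) library, with exact 95% Poisson intervals where they exceed the point. The widest gap between the libraries among antigen-presenting gates is in classical monocytes (16412 against 7236 CPM), and T and NK cells, right of the dashed line, are also lower in the creatine library.

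T and NK cells of mice make little or no class II, so their level gives what free RNA and mixed droplets add. T cells held 1179 CPM of the summed genes in the control and 350.3 CPM in the creatine library, and NK cells held 1195 and 491 CPM. Every antigen-presenting gate lay above its library's T and NK cells, pDCs the least. The background was thus over 2 times lower in the creatine library, and it also depended on the gate. With at least 4 markers required and no other list holding more than 0.5 times as many markers as the gate's own, T and NK cells together held 530.2 and 216 CPM. Some lymphocytes were themselves high. The 74 control T cells with at least 100 summed UMIs per 10000 had a median of 18784 UMIs against 8279.5 in the other T cells, and held a mean of 2.24 cDC2 markers against 0.185. In the creatine library there were 17 such T cells.

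The proportions of the genes in T cells were set beside those in macrophages. Of 1000 summed UMIs in control T cells, 201 were H2-Aa, 211 H2-Ab1, 184 H2-Eb1 and 403 Cd74, where macrophages of that library gave 199, 200.1, 179 and 422. In the creatine library T cells gave 197, 213, 151 and 439.9 and macrophages 204, 202, 168 and 426. The intervals of the gates did not overlap for H2-Ab1 in either library, for Cd74 in the control and for H2-Eb1 in the creatine library. Other members differed by more. H2-Oa stood at 9.28 and 19.2 per 1000 in control and creatine T cells against 0.29 and 0.113 in macrophages, and H2-DMa at 37 and 94.6 against 26.8 and 29.7. H2-DMb2 stood at 4.07 and 1.76 in control and creatine T cells against 0.979 and 0.565 in macrophages. Ctss stood at 448 in creatine T cells against 258 in macrophages, but at 145 in control T cells against 190. The level of T and NK cells under the stricter gate (530.2 and 216 CPM) was subtracted from every gate. The higher level of the T cell gate (1179 and 350.3 CPM) was not subtracted. The sign of the summed log2 ratio was kept in 7 of 8 antigen-presenting gates, and in nonclassical monocytes the ratio went from -0.03 to 0.013.

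At the level of single cells, class II message was high in nearly all cDC1 and split in classical monocytes. A cell was called high when the 4 genes took at least 100 of 10000 UMIs, a threshold chosen after the values had been seen. This held for 98.4% of control and 100% of creatine cDC1, and for 93.5% and 74.5% of cDC2, with exact intervals for cDC2 of 87% to 97.3% and 59.7% to 86.1%. B cells were high in 87.5% and 80% of cells and macrophages in 57.1% and 60.8%. Ccr7+ DCs were mixed, with 55.3% and 50% high cells, and the 10% and 90% points of control Ccr7+ DCs were 31.6 and 477 per 10000. In pDCs 5 of 38 control and 1 of 21 creatine cells were high. Classical monocytes were high in 44% (38.7% to 49.5%) of control and 21% (17.8% to 24.4%) of creatine cells, with medians of 69.9 and 5.72 per 10000. Cells near the threshold, from 50 to 200 per 10000, numbered 81 and 93 classical monocytes and 359 and 121 macrophages.

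**Figure D2:**
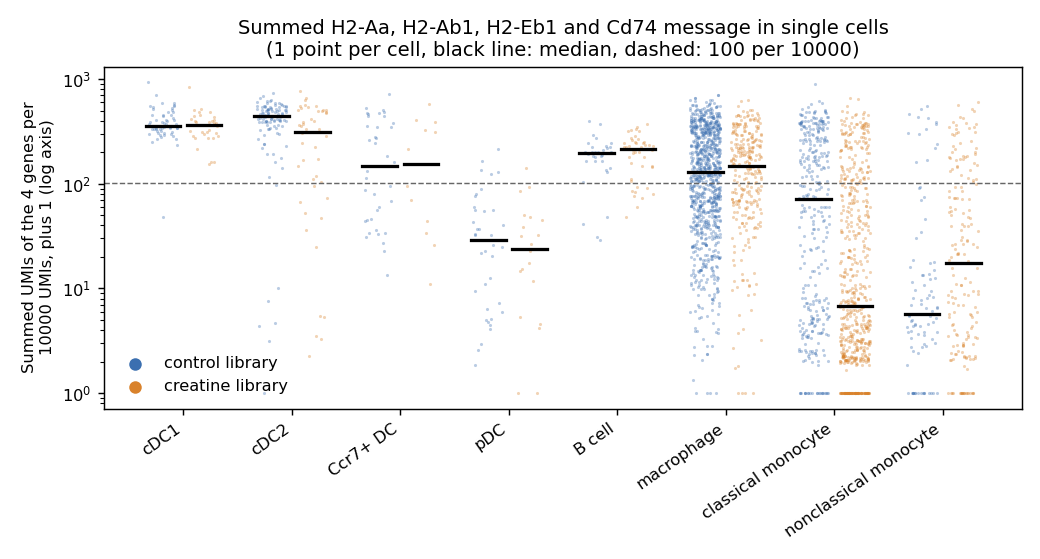
Summed UMIs of H2-Aa, H2-Ab1, H2-Eb1 and Cd74 per 10000 UMIs of a cell, plus 1, on a log axis, with 1 point per cell, the median as a black line and the threshold of 100 dashed. cDC1 form 1 band in both libraries, and classical monocytes form a high and a low band, with medians of 69.9 (control, blue) and 5.72 (creatine, orange).

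Shares of cells with a UMI gave the same picture at equal depth. With every cell thinned to 2000 UMIs, H2-Ab1 was found in all 62 control and all 29 creatine cDC1 deep enough, and in 94.3% and 82.6% of cDC2. In classical monocytes it was found in 66.7% (61.3% to 71.7%) and 36.2% (32.3% to 40.1%). T cells gave 13.7% and 5.59% at this depth, which is the share free RNA and mixed droplets can reach. Thinning left out 13 and 12 shallower classical monocytes and 166 and 66 T cells, and the unthinned shares were 77% and 50.2% in classical monocytes and 41% and 21.5% in T cells. Ciita, a low message, was found in 51.6% and 65.5% of cDC1, 53.8% and 56.5% of cDC2, 27.3% and 22.7% of classical monocytes, and 1.95% and 1.07% of T cells.

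The peptide-loading genes did not follow the chains in every cell type, and they were compared as UMIs per 1000 summed UMIs of the 4 genes, with exact 95% intervals. H2-Ab1 made up 200.1 of 1000 in control macrophages and 232 in control cDC1, but 143 (135 to 151) in control and 135 (123 to 148) in creatine Ccr7+ DCs, where H2-Aa took 258 and 280.3. In level, H2-Aa of control Ccr7+ DCs (6674 CPM) was near that of cDC1 (7185 CPM), while H2-Ab1 (3685 against 8773 CPM) was lower by more than 2 times. The invariant chain took a larger part in pDCs (532 and 549) and in B cells (519 and 471) than in cDC1 (395 and 399), with no overlap of the intervals.

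H2-DMa, the alpha chain of the peptide exchanger, stood at 25.1 to 39.1 per 1000 in control cDC1, cDC2, B cells, macrophages and both monocyte gates, at 98.2 in pDCs and at 11.5 in Ccr7+ DCs. In level, H2-DMa of pDCs was not high, at 436 and 466 CPM against 451 and 479 CPM in macrophages and 1260 and 1126 CPM in cDC2. Of the partners of H2-DMa, H2-DMb1 stood at 25 per 1000 in control cDC1, 24.4 in cDC2 and 24.5 in macrophages, but at 3.15 (2.07 to 4.58) in Ccr7+ DCs and 9.35 (4.83 to 16.3) in B cells. The creatine library gave 2.48 and 2.9 in the last 2 gates. H2-DMb2 went the other way between B cells and macrophages. It stood at 18.7 and 20.5 per 1000 in B cells of the 2 libraries. In macrophages (0.979 and 0.565) and classical monocytes (0.922 and 0.856) it was under 1. In cDC2, which also held H2-DMb1, it stood at 6.24 and 3.44. B cells thus held 12 H2-DMb1 and 24 H2-DMb2 UMIs in the control library, and 12 and 85 in the creatine library. Macrophages held 5572 and 223, and 2954 and 55. The last 500 bases of H2-DMb1 transcripts shared 20.4% of their 50-base windows with H2-DMb2, and those of H2-DMb2 shared 13.6% with other genes. How many reads this left out or split was not measured.

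H2-Oa, the alpha chain of the H2-DM inhibitor, was highest in B cells at 228 CPM in the control and 237 CPM in the creatine library. cDC2 followed with 135 and 146 CPM and pDCs with 105 and 109 CPM, and each gate's interval overlapped that of the gate above it in both libraries. Macrophages and classical monocytes held 4.87 and 4.57 CPM in the control library, below the 10.9 CPM of its T cells. H2-Ob, the partner chain and no member of the list, was highest in B cells (441 and 515 CPM) and present in cDC1 (108 and 92.8 CPM). In pDCs it gave 1 and 0 UMIs against 29 and 21 of H2-Oa, and the count of 0 allows up to 19.1 CPM. H2-Eb2, a second beta chain gene of the cluster, gave 42 and 13 UMIs in Ccr7+ DCs (126 and 91.2 CPM) and 10 in creatine B cells, and at most 3 in any other antigen-presenting gate of a library, the 927 control macrophages included.

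Ctss was highest in the phagocytes. Macrophages held 3193 and 4153 CPM and classical monocytes 2544 and 2305 CPM, where cDC1 held 586 and 1012 CPM and cDC2 1399 and 1638 CPM. Ciita was highest in cDC2 (531 and 532 CPM) and cDC1 (496 and 539 CPM), whose intervals overlapped in each library. Ccr7+ DCs held 99.3 and 126 CPM, or 3.84 (2.65 to 5.4) and 5.58 (3.31 to 8.82) per 1000 summed UMIs against 13.1 and 14.4 in cDC1. Counting near the 3′ end does not tell the alternative first exons of Ciita apart. March1, a ubiquitin ligase that removes class II from the surface, gave 1 and 0 UMIs in Ccr7+ DCs and 154 and 66 in cDC1. Its count of 0 allows up to 25.9 CPM. In both libraries Ccr7+ DCs had the lowest H2-Ab1, H2-DMa, H2-DMb1 and Ciita per 1000 summed UMIs of the 8 gates. For H2-DMa their intervals met those of no other gate, while those of H2-Ab1 overlapped the intervals of pDCs in both libraries and of B cells in the control, those of H2-DMb1 overlapped B cells in the creatine library, and those of Ciita overlapped pDCs in both and macrophages in the creatine library. The creatine values rest on 12 cells.

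**Figure D3:**
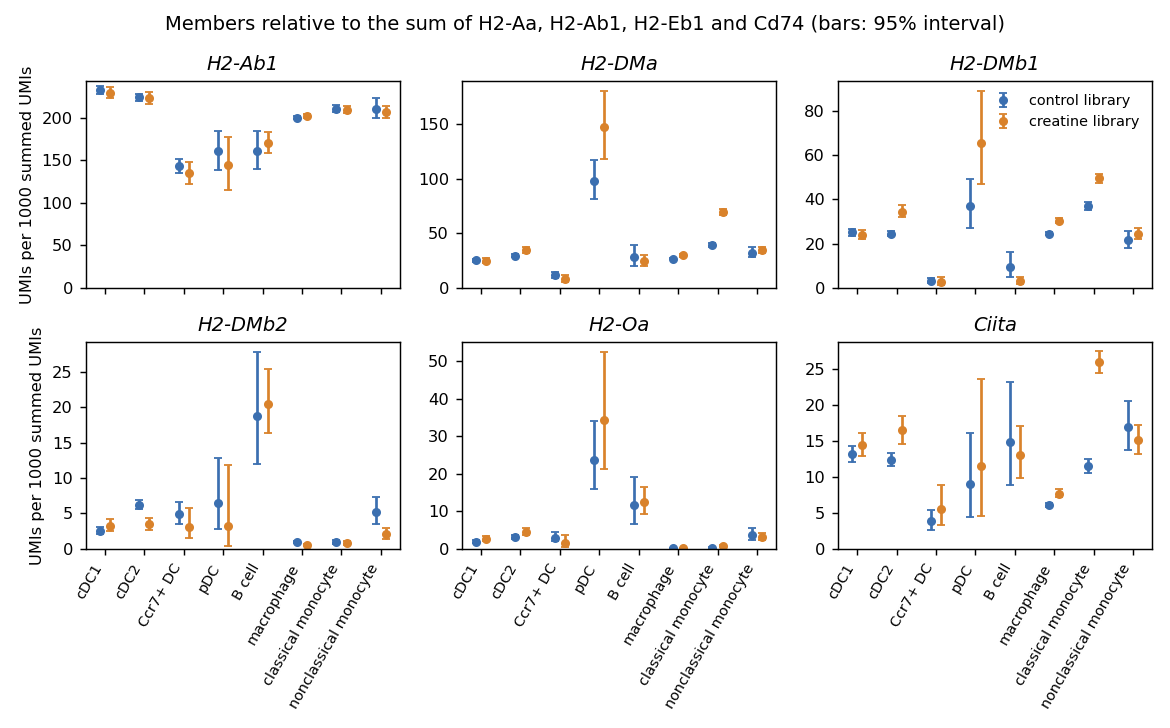
UMIs of 6 members per 1000 summed UMIs of H2-Aa, H2-Ab1, H2-Eb1 and Cd74 in each antigen-presenting gate of the control (blue) and creatine (orange) library, with exact 95% intervals and a linear axis from 0 that differs between panels. Ccr7+ DCs are low in H2-Ab1 (143 and 135) and H2-DMb1, and B cells are high in H2-DMb2 (18.7 and 20.5). Relative to their sum, which is the lowest of these gates, pDCs are high in H2-DMa and H2-Oa.

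The creatine library was then compared with the control library within each gate. A gene was counted as past the fold when its CPM differed by at least 1.5 times, it had at least 20 UMIs over both libraries and the exact 95% interval of the ratio left out 1. This is a rule of size for 2 libraries and not a test of creatine treatment. The share of all genes past the fold is given beside each count. In classical monocytes 6 of 10 members were lower past the fold, where 7.25% of all genes were. In the other gates 1 or 2 members were past it in either direction. There 2.8% to 9.75% of all genes were higher and 3.23% to 6.34% lower, and these small counts were not tested against the shares. Neither the summed message of any other gate nor Ciita in any gate was past the fold.

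**Figure D4:**
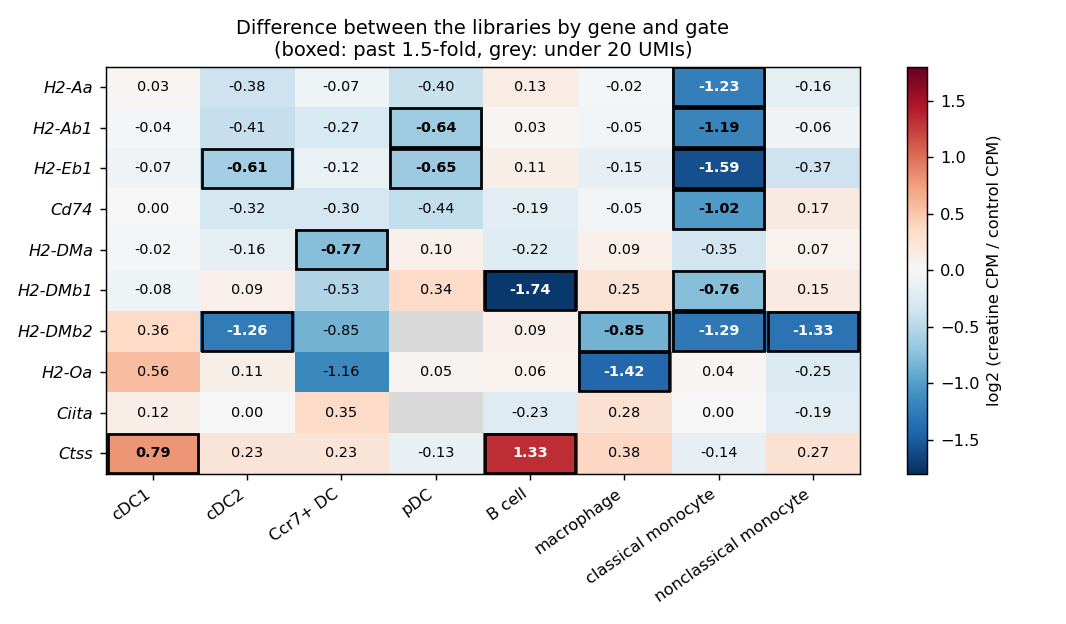
log2 ratio of CPM, creatine over control library, of each member (rows) in each antigen-presenting gate (columns), blue where lower and red where higher in the creatine library, boxed where past the 1.5-fold rule and grey where under 20 UMIs. Boxes cluster in classical monocytes (6 of 10 members) and in the row of H2-DMb2 (4 gates).

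In classical monocytes, the Ly6c2+ precursors that enter tumors from blood, all 3 chains and the invariant chain were lower in the creatine library. H2-Aa was 3223 CPM in the control and 1373 CPM in the creatine library, which gives a log2 ratio, creatine over control, of -1.23, interval -1.27 to -1.19. H2-Ab1 went from 3457 to 1515 CPM (-1.19), H2-Eb1 from 2769 to 922 CPM (-1.59) and Cd74 from 6963 to 3427 CPM (-1.02). The intervals of H2-Eb1 (-1.64 to -1.54) and Cd74 (-1.05 to -0.99) did not meet, so the ratios of the 4 genes were not equal within counting error. H2-DMb1 (-0.76) and H2-DMb2 (-1.29, 43 and 37 UMIs) were also lower past the fold, and H2-DMa (-0.35) and Ctss (-0.14) were lower by less than 1.5 times. Ciita did not follow, at 188 CPM in the control and 187 CPM in the creatine library and a log2 ratio of -0.0046, interval -0.15 to 0.15. Over all genes of this gate 7.25% were lower and 6.7% higher past the fold, and the median log2 ratio was -0.89 over the members and 0.02 over all genes.

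The lower sum in classical monocytes came with fewer high cells and with fewer macrophage markers. Among high cells the sum was 29803 CPM in the control and 25833 CPM in the creatine library. Markers of macrophages summed to 1015 CPM in control and 514 CPM in creatine classical monocytes, and high cells held more of them than low cells (a mean of 2.52 against 1.72 of 7 in the control library). Cells with UMIs of fewer than 2 macrophage markers were 117 control and 306 creatine cells. In them the sum was 8287 and 6053 CPM, a log2 ratio of -0.45, which is below 1.5-fold, and 24.8% and 17.3% were high. The split was made after the data had been seen. Under the stricter gate, with at least 4 markers required, the summed log2 ratio was instead more negative than in all classical monocytes, as given below.

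In nonclassical monocytes, the patrolling Ly6c-low type, the summed log2 ratio was -0.03 (interval -0.08 to 0.01), and 14 of 93 control and 47 of 183 creatine cells were high. H2-DMb2 alone was past the fold, lower at 31 and 32 UMIs (-1.33, interval -2.09 to -0.57), where 3.89% of all genes were lower and 3.83% higher. H2-Eb1 was lower (-0.37) and Cd74 higher (0.17) by less than 1.5 times. The value depended on the gate. Under the stricter gate the sum was 3428 CPM in 51 control and 8675 CPM in 105 creatine cells, a log2 ratio of 1.34. There 7 members were past the fold, where 267 genes were higher and 252 lower of 5815 tested. With TMM scaling the calls over all genes went from 293 higher and 298 lower to 380 higher and 232 lower.

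In macrophages, class II message was close in the libraries. The summed log2 ratio was -0.06 (interval -0.07 to -0.05), H2-Aa was 3349.5 CPM in the control and 3295 CPM in the creatine library, and H2-Eb1 had the largest difference of the chains (-0.15). H2-DMb1 (0.25), Ciita (0.28) and Ctss (0.38) were higher by less than 1.5 times, with intervals that left out 0. H2-DMb2 (16.5 and 9.12 CPM, -0.85, interval -1.31 to -0.42) and H2-Oa (66 and 11 UMIs, -1.42, interval -2.49 to -0.49) were lower past the fold, where 4.17% of all genes were lower and 2.8% higher. Both calls were lost under the stricter gate (-0.58 and 0.29) and without the 5% deepest cells (-0.12 and -0.65). Both genes were also lower in the creatine T cells, H2-DMb2 at 4.8 and 0.618 CPM and H2-Oa at 10.9 and 6.72 CPM. For H2-Oa these T cell levels lay above the 4.87 and 1.82 CPM of macrophages. They thus cannot stand for the H2-Oa free RNA in macrophages. Under the stricter gate T and NK cells together held 10.1 and 7.28 CPM of H2-Oa, and 2.52 and 0.359 CPM of H2-DMb2. Less this level, H2-DMb2 of macrophages was still lower by more than 1.5 times. For H2-Oa the level lay above that of macrophages, so no ratio could be taken. The part of free RNA in these calls was not tested.

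In cDC1, the DCs that cross-present to CD8 T cells, class II message was at about the same level in both libraries. H2-Aa was 7185 CPM in the control and 7331 CPM in the creatine library (0.03, interval -0.03 to 0.08), H2-Ab1 8773 and 8562 CPM (-0.04) and Cd74 14917 and 14895 CPM (-0.0022). H2-Eb1 was lower by little, with an interval just below 0 (-0.07, interval -0.13 to -0.01). H2-DMa (-0.02), H2-DMb1 (-0.08) and Ciita (0.12) had intervals that held 0. H2-Oa was higher by less than 1.5 times, at 79 and 57 UMIs (0.56, interval 0.04 to 1.07). Ctss alone was past the fold, at 586 CPM in the control and 1012 CPM in the creatine library (0.79, interval 0.62 to 0.95), where 7.31% of all genes were higher and 5.3% lower. Macrophage markers summed to 124 CPM in control and 302 CPM in creatine cDC1. With equal weight for each cell the ratio of Ctss was 0.43, below 1.5-fold.

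In cDC2, which present mainly to CD4 T cells, all 3 chains and the invariant chain were lower in the creatine library, H2-Eb1 past the fold. H2-Eb1 was 8334 CPM in the control and 5448 CPM in the creatine library (-0.61, interval -0.67 to -0.56). H2-Aa went from 8356 to 6442 CPM (-0.38), H2-Ab1 from 9602 to 7204 CPM (-0.41) and Cd74 from 16616 to 13279.5 CPM (-0.32). H2-DMb2 was lower past the fold at 389 and 62 UMIs (-1.26, interval -1.67 to -0.87), while H2-DMb1 (0.09, interval -0.05 to 0.22) and Ciita (0.0029, interval -0.20 to 0.20) were at about the same level. Over all genes 4.91% were lower and 7.27% higher past the fold, a split of 538 higher and 363 lower genes that became 448 higher and 456 lower with TMM scaling. High cells held 44827 and 39573 CPM of the sum, and 7 control and 12 creatine cells were not high. Classical monocyte markers summed to 277 CPM in control and 658 CPM in creatine cDC2. In the 85 and 30 cells with fewer than 2 of these markers the summed log2 ratio was -0.36, against -0.41 in all cDC2.

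Ccr7+ DCs gave a summed log2 ratio of -0.19 (interval -0.25 to -0.13), from 38 control and 12 creatine cells. H2-DMa was lower past the fold, at 99 and 25 UMIs (-0.77, interval -1.46 to -0.12), and its ratio was -0.40 with equal weight for each cell. H2-DMb1, H2-DMb2 and H2-Oa were at 8, 10 and 5 UMIs in the creatine library, too few for an interval that leaves out 0. Of all genes 6.34% were lower and 7.56% higher past the fold, with 228 higher and 191 lower, or 169 higher and 249 lower with TMM scaling. Under the stricter gate, in 30 control and 10 creatine cells, H2-Ab1 was also past the fold (-0.84).

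In pDCs, which make type I interferon and present little, 8 members had 20 UMIs or more, all but Ciita (11 and 7 UMIs) and H2-DMb2 (8 and 2 UMIs). H2-Ab1 (196 and 88 UMIs, -0.64, interval -1.02 to -0.27) and H2-Eb1 (139 and 62 UMIs, -0.65, interval -1.11 to -0.21) were lower past the fold, and H2-Aa (-0.40) and Cd74 (-0.44) were lower by less. In CPM, H2-Ab1 stood at 713 and 456 and H2-Eb1 at 506 and 321 in pDCs. T cells, the background of free RNA and mixed droplets, held 249 and 74.5 CPM of H2-Ab1 and 217 and 52.9 CPM of H2-Eb1. Under the stricter gate T and NK cells together held 118 and 45 CPM of H2-Ab1 and 92.7 and 34.1 CPM of H2-Eb1. How much of these 2 calls is free RNA was not tested. H2-DMa (0.10), H2-DMb1 (0.34), H2-Oa (0.05) and Ctss (-0.13) had intervals that held 0. Of all genes 3.23% were lower and 4.34% higher, with 149 higher and 111 lower, or 112 higher and 157 lower with TMM scaling. Neither call held under the stricter gate, in 29 control and 13 creatine cells, where H2-Ab1 was at -0.47 and H2-Eb1 at -0.15.

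In B cells the sum was 19504 CPM in the control and 18873 CPM in the creatine library (-0.05, interval -0.14 to 0.04), in 32 and 45 cells of low depth. H2-Aa (0.13), H2-Ab1 (0.03), H2-Eb1 (0.11), H2-DMb2 (0.09) and H2-Oa (0.06) had intervals that held 0. H2-DMb1 was lower past the fold with 12 UMIs in each library (-1.74, interval -3.02 to -0.45), and the call was lost with at most 10% mitochondrial UMIs (-1.36). Ctss was higher past the fold at 30 and 252 UMIs (1.33, interval 0.78 to 1.93), but at 0.35 with equal weight for each cell, and the classical monocyte markers given above moved with it. Of all genes 9.75% were higher and 4.15% lower, with 209 higher and 89 lower. TMM scaling shifts every log2 ratio of this gate by 0.20 and gives 311 higher and 52 lower, and leaving out mitochondrial and ribosomal protein genes shifts it by -0.11 and gives 177 higher and 118 lower, so the sign of the summed ratio is not fixed.

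The members not yet given had smaller differences. In cDC2, H2-DMa was at -0.16, H2-Oa at 0.11 and Ctss at 0.23. In Ccr7+ DCs, H2-Aa was at -0.07, H2-Ab1 at -0.27, H2-Eb1 at -0.12, Cd74 at -0.30 and Ctss at 0.23. In macrophages, H2-Ab1 was at -0.05, Cd74 at -0.05 and H2-DMa at 0.09, and in B cells Cd74 was at -0.19, H2-DMa at -0.22 and Ciita at -0.23. In nonclassical monocytes, H2-Aa was at -0.16, H2-Ab1 at -0.06, H2-DMa at 0.07, H2-DMb1 at 0.15, H2-Oa at -0.25, Ciita at -0.19 and Ctss at 0.27. None of these passed the fold. The median log2 ratio over the members with 20 UMIs, with that over all genes after it, was 0.01 and 0.02 in cDC1, -0.24 and 0.03 in cDC2, -0.28 and -0.01 in Ccr7+ DCs, -0.27 and 0.04 in pDCs, 0.04 and 0.12 in B cells, -0.03 and -0.02 in macrophages and -0.11 and 0.00015 in nonclassical monocytes.

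H2-DMb2 was past the fold in more gates than any other member, lower in cDC2, macrophages and both monocyte gates. The macrophage call was lost under the stricter gate and without the 5% deepest cells. Those of the monocytes rest on 43 and 37 UMIs (classical) and 31 and 32 UMIs (nonclassical). H2-DMb2 was also lower in creatine T cells, at 4.8 and 0.618 CPM. Its log2 ratio was -0.85 in Ccr7+ DCs with an interval that held 0, and 0.36 in cDC1 and 0.09 in B cells, the gate where it was highest. H2-Eb1 had the lowest log2 ratio of the 3 chains in 6 of 8 gates, all but Ccr7+ DCs and B cells. As a part of the summed message it was 194 and 168 per 1000 in control and creatine cDC2 and 169 and 127 in classical monocytes. It was 184 and 146 in nonclassical monocytes and 179 and 168 in macrophages, and the intervals overlapped in none of these gates. T cells also gave no overlap (184 and 151), while the intervals of NK cells and of the other antigen-presenting gates overlapped. Ctss was higher in the creatine library in 6 of 8 gates, pDCs and classical monocytes being the others.

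The other class II pathway genes were a list of 18, of which 16 were in the matrices. The gene of this list past the fold in most gates was Irf1, an interferon-responsive factor that acts on Ciita. It was at 137 CPM in the control and 276 CPM in the creatine library in macrophages (1.01, interval 0.91 to 1.1), 131 and 367 CPM in cDC2 (1.48, interval 1.19 to 1.77) and 74.3 and 173 CPM in cDC1 (1.22, interval 0.78 to 1.66). Ccr7+ DCs (1.2), classical monocytes (0.75) and nonclassical monocytes (1.15) were also higher past the fold, which makes 6 of 8 gates. In B cells the 3 and 28 UMIs gave an interval that held 0. pDCs were lower past the fold, at 63 and 21 UMIs (-1.07, interval -1.86 to -0.34). In T cells, outside the antigen-presenting gates, the log2 ratio of Irf1 was 0.38, and in NK cells it was 0.17. Ciita did not go with it. Of its 7 log2 ratios with 20 UMIs or more, the largest was 0.35 in Ccr7+ DCs, and its interval left out 0 in macrophages alone (0.28, interval 0.15 to 0.41).

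**Figure D5:**
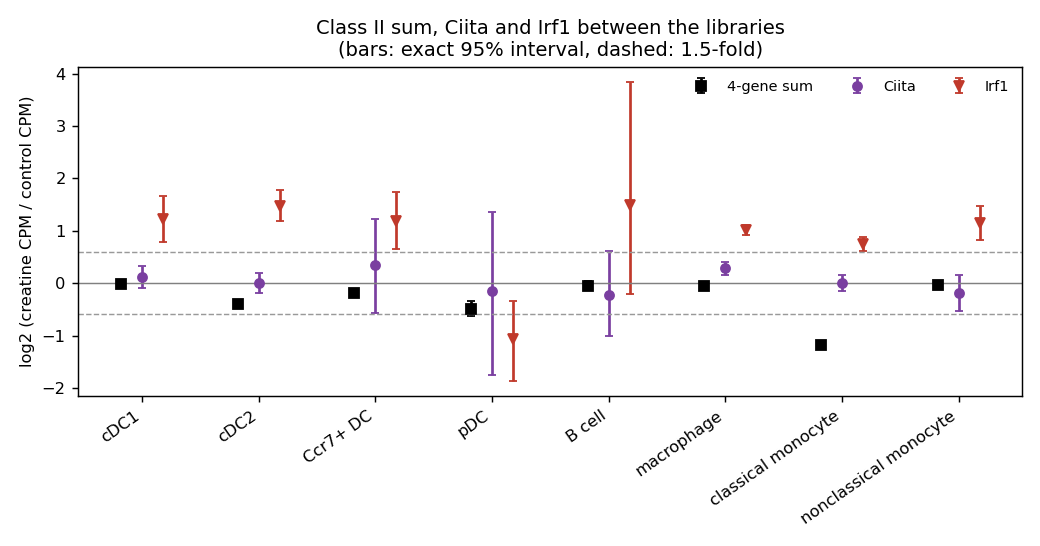
log2 ratio of CPM, creatine over control library, of the sum of H2-Aa, H2-Ab1, H2-Eb1 and Cd74 (black squares), Ciita (purple) and Irf1 (red) in each antigen-presenting gate, with exact 95% intervals and the 1.5-fold limits dashed. In cDC2 and classical monocytes Irf1 lies above the upper limit, Ciita near 0 and the sum at -0.41 and -1.18.

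The DNA-binding partners of CIITA differed in count. Rfx5, a subunit of RFX, had 6 and 3 UMIs in cDC1 and 80 and 31 in macrophages. Rfxank, another subunit, had 6 and 3 in cDC1 and 111 and 56 in macrophages. Rfxap, also a subunit, had more, with 45 and 18 in cDC1 and 365 and 172 in macrophages. In the same gates Nfyb had 44 and 17, and 309 and 149, and Creb1 had 43 and 27, and 511 and 257. Nfya (22 and 21 UMIs, 1.32) and Nfyb (50 and 36 UMIs, 0.91) were higher past the fold in cDC2, and Creb1 (0.61) in classical monocytes. Of the endosomal proteases, Lgmn (559.9 and 192 CPM, -1.55) and Ctsl (265 and 72.7 CPM, -1.86) were lower past the fold in classical monocytes, as was Ctsl in nonclassical monocytes (-0.70). Lgmn (0.61) and Ctsb (0.60) were higher in cDC1, and Ctsb in B cells (1.03). Both proteases are highest in macrophages (1949 CPM of Lgmn and 4645 CPM of Ctsb in the control library). Macrophage markers were lower in classical monocytes and higher in cDC1 of the creatine library, as given above, and in B cells they were lower (365 and 164 CPM). H2-Ob was lower past the fold in cDC2 (99 and 23 UMIs, -0.72) and macrophages (51 and 11 UMIs, -1.05), and Sppl2a, which clears the last invariant chain fragment, in Ccr7+ DCs (68 and 13 UMIs, -1.17). In all, 3 higher and 0 lower of 12 in cDC1 were past the fold, beside 7.31% higher and 5.3% lower of all genes. In the same order, cDC2 gave 3 and 1 of 13 (7.27% and 4.91%) and Ccr7+ DCs 1 and 1 of 7 (7.56% and 6.34%). pDCs gave 0 and 1 of 7 (4.34% and 3.23%) and B cells 1 and 0 of 7 (9.75% and 4.15%). Macrophages gave 1 and 1 of 15 (2.8% and 4.17%), and classical monocytes 2 and 2 of 15 (6.7% and 7.25%). Nonclassical monocytes gave 1 and 1 of 12 (3.83% and 3.89%). These counts are small and were not tested against the shares.

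Across the 20 values of 10 gates in 2 libraries, the genes outside the list whose log2(CPM + 1) was most like that of the summed message were Gdi2 (Pearson r = 0.90), Plekho1, Zfp516, Tnip2, Pkib, Btk, Irf5, Ifngr2, Shtn1 and Oat (0.84), among 9869 genes with at least 500 UMIs. Irf5 is a transcription factor of myeloid and B cells, Btk a kinase of the B cell receptor and Ifngr2 a chain of the interferon gamma receptor. Of the members that are not in the sum, Ciita had an r of 0.95, H2-DMa 0.88, H2-DMb2 0.85, H2-DMb1 0.79, Ctss 0.74 and H2-Oa 0.42. The 20 values come from 2 libraries, share their depth and free RNA, and are a description only.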

How the data were processed

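Per the labels, reads were aligned to mm10 and counted with Cell Ranger (version 3.0.2 in the submitters' processing notes). The authors deposited the raw UMI counts of each gene in each cell, unnormalized. The gene and barcode lists hold no measurement. The members, gene lists and gates were chosen with earlier results of these data known.

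Cells with at least 300 UMIs, 100 genes and at most 25% mitochondrial UMIs were kept. The 12 marker lists hold 7 genes each. A cell with more than 2 markers of another lineage (T, NK, B, neutrophil, melanoma) was left out of antigen-presenting gates, and ties stayed out (12.8% of control and 9.57% of creatine cells had no gate). No doublet caller was run, and the limit on other lineages stands in for it. UMIs were summed per gate and library and divided by the gate's total (65832 to 13551104 UMIs) to give CPM. Totals over kept cells were 79319769 and 72091124 UMIs. Intervals are exact 95% (Poisson, conditional binomial for ratios, Clopper-Pearson for shares) and cover counting error only. With 1 library per group no test was made. The rule of size was tested on simulated data. These were Poisson counts with counting error only and no difference between mice, so they do not vouch for any call.

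Named genes are the 10 members, the other 16 pathway genes found (H2-Ea-ps and Ifi30 were not analysed here, and 1 further gene of the pathway is not reported here) and the 10 genes most like the sum. Alternatives were a 10% mitochondrial limit, a stricter gate, the 5% deepest cells left out, CPM without mitochondrial and ribosomal protein genes, TMM (edgeR 4.0.16 in R 4.3.3), equal weight for each cell, a fold of 2, no UMI minimum and thinning to 1000 UMIs. Leaving out shared barcodes, subtracting the T and NK cell level of the stricter gate, and splitting by other markers were added after seeing the data. Positions are from GENCODE M21. Sums, intervals and plots were made in Python 3.11.15 (scipy 1.17.1, pandas 2.3.3, numpy 2.4.6, matplotlib 3.10.9).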

Additional observations from a re-analysis of the deposited data

Results flagged for a closer look

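Irf1 was past 1.5-fold in opposite directions in different gates. Its log2 ratio, creatine over control library, was -1.07 in pDCs, and 1.22 in cDC1, 1.48 in cDC2, 1.2 in Ccr7+ DCs, 1.01 in macrophages, 0.75 in classical monocytes and 1.15 in nonclassical monocytes. Lgmn, the asparaginyl endopeptidase of the endosome, was at 0.61 in cDC1 and -1.55 in classical monocytes. With 1 library per group the difference between gates was not tested.

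Class II message was also found in cells that entered no comparison. The 926 control and 596 creatine cells in no gate held 15051 and 13319.5 CPM of the 4 summed genes, above the 1179 and 350.3 CPM of T cells, and 360 and 208 of them were high. The neutrophil gate held 14625 CPM in 51 control and 1275 CPM in 24 creatine cells. Of these, 5 control cells and no creatine cell were high, and the medians were 5.24 and 1.42 per 10000.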

How the results depend on the processing

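The summed log2 ratio left its counting interval in these gates and settings. Under the stricter gate it was -0.064 in cDC1, -0.51 in cDC2, -0.38 in Ccr7+ DCs, -0.23 in pDCs, 0.057 in B cells, 0.021 in macrophages, -1.44 in classical monocytes and 1.34 in nonclassical monocytes. With TMM scaling it was -0.068 in cDC1, -0.47 in cDC2, -0.28 in Ccr7+ DCs, 0.15 in B cells and 0.024 in nonclassical monocytes, and in CPM without mitochondrial and ribosomal protein genes -0.050 in cDC1, -0.45 in cDC2, -0.15 in B cells, -0.11 in macrophages, -1.2 in classical monocytes and -0.082 in nonclassical monocytes. With equal weight for each cell it was -0.10 in cDC1, -0.46 in cDC2, -0.090 in Ccr7+ DCs, 0.094 in B cells, -0.0034 in macrophages, -1.16 in classical monocytes and 0.38 in nonclassical monocytes. It was -0.072 in macrophages with at most 10% mitochondrial UMIs and 0.14 in macrophages without the 5% deepest cells. Less the level in T and NK cells of the stricter gate, it was -0.033 in macrophages and 0.013 in nonclassical monocytes. Without cells holding 2 or more markers of the other type, a split added after seeing the data, it was -0.36 in cDC2 and -0.45 in classical monocytes, the alternative that took the last gate below 1.5-fold. Leaving out shared barcodes moved none of the 8 ratios beyond its interval. The stricter gate held 51 control and 20 creatine cDC1, 56 and 16 cDC2 and 30 and 10 Ccr7+ DCs. It also held 29 and 13 pDCs and 22 and 38 B cells, so these values rest on few cells.

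The number of members past the fold became 2 in Ccr7+ DCs, 0 in pDCs, 1 in B cells, 0 in macrophages and 7 in nonclassical monocytes under the stricter gate, 2 in cDC1 and 0 in macrophages without the 5% deepest cells, 1 in B cells with at most 10% mitochondrial UMIs, and 0 in cDC1, 1 in cDC2, 0 in Ccr7+ DCs, 0 in pDCs and 1 in macrophages at a fold of 2. It stayed within 1.5 times in all 8 gates with TMM scaling, with CPM without mitochondrial and ribosomal protein genes, with no UMI minimum and without shared barcodes. Over all genes, the stricter gate gave 183 higher and 180 lower of 2530 in Ccr7+ DCs, and 92 and 88 of 2429 in pDCs. In B cells it gave 82 and 45 of 1384, in macrophages 288 and 434 of 10763, and in nonclassical monocytes 267 and 252 of 5815. Without the 5% deepest cells, cDC1 gave 456 and 314 of 6562 and macrophages 315 and 505 of 10813. With at most 10% mitochondrial UMIs, B cells gave 213 and 78 of 1939. At a fold of 2 no share over all genes was taken. Of single members, only H2-Oa in macrophages changed sign after a call (0.29 under the stricter gate). The causes were not tested. The smallest summed depth, that of B cells of the control library, was 65832 UMIs, and shares thinned to 1000 UMIs left their intervals for H2-Ab1 or Ciita in 16 of 32 cases. No paired analysis was possible because each group has 1 library.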
